A study of Mus musculus with 2 samples.

Results

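The 10 genes described here encode proteins that join the actin cytoskeleton to integrins at focal adhesions, or that bundle, crosslink and pull actin filaments. They are Tln1, Vcl, Zyx, Csrp1, Lima1, Flna, Actn1, Actn4, Myh9 and Myl12a, and were chosen by name from the 27998 genes counted in each library. Single-cell RNA sequencing was done on mouse induced pluripotent stem cells (iPSCs), made by turning body cells back into cells that resemble embryonic stem cells. The knockout cells carried deleted Srf alleles (SRFΔ/Δ), and the wild-type cells carried the floxed alleles without recombination (SRFf/f). Both grew in medium containing serum, so the serum stimulus was common to the groups. Each genotype was 1 droplet library, and the labels give neither the number of clones or cultures, nor how recombination was brought about, nor the age of the cultures. No test between genotypes was possible, each comparison is of these 2 libraries, and clone, culture and genotype cannot be told apart.

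Focal adhesions are plaques where integrins, which hold the extracellular matrix outside the cell, are tied to actin filaments inside it. Non-muscle myosin II pulls on these filaments, and the plaque proteins carry and respond to that pull. Serum response factor, the product of Srf, is a transcription factor that binds a DNA element called the CArG box, and with its cofactors of the MRTF family it drives many actin and adhesion genes, including Vcl, when actin monomers are used up.

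Promoters are shown first because the deleted factor acts through this element. The RefSeq promoter table for GRCm38.p6 held all 10 genes, with 250 bases before to 50 bases after each start and an extra start for Csrp1. The CArG box was searched by its consensus on both strands, and no other motif was searched. A match to all 10 letters was found for Vcl and Lima1. Among all 32851 promoters of this length, 535 (1.63%) held such a match. Flna and Myl12a matched 9 of 10 letters at best, as 21.1% of all promoters did or better, and the other members matched 7 or 8. Stretches of 100 bases upstream of the start are printed 5′ to 3′ on the strand of the gene, with the best match in capitals. Vcl and Lima1 are shown because they hold the box, and Flna and Myl12a, chosen after their values were seen, because theirs are the nearest matches. The Vcl stretch lies at chr14:20929148-20929247 on the plus strand, with the box beginning 227 bases before the start. The Lima1 stretch lies at chr15:99820150-99820249 on the minus strand, with the box 47 bases before it. The Flna stretch lies at chrX:74246535-74246634 on the minus strand, and the Myl12a stretch at chr17:71002534-71002633 on the minus strand.
Vcl: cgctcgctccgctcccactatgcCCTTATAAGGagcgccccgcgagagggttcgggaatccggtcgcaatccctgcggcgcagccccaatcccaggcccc
Lima1: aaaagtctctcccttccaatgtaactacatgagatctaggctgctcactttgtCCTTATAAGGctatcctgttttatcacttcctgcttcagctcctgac
Flna: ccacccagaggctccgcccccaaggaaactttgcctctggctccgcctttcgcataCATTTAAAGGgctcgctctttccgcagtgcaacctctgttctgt
Myl12a: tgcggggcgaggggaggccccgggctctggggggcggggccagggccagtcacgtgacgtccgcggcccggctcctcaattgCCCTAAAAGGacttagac
These are matches of letters in a window, and binding was not measured. The Lima1, Flna and Myl12a windows belong to starts inside the gene as the annotation below gives it, while the counts are of the whole gene.

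The knockout library held 1073 cells with 22277996 counts of unique molecular identifiers (UMIs, each counting 1 captured RNA molecule), and the wild-type library 954 cells with 24005849. Cells were kept with at least 1000 detected genes, 1 to 10% of counts from mitochondrial genes, and under 5 UMIs over Col1a2, Col3a1 and Acta2, genes of fibroblasts. The cells over that limit are called feeder cells, although the labels name no feeder layer. This kept 731 knockout cells (18203451 UMIs, median 24423 a cell) and 893 wild-type cells (23270714 UMIs, median 26656). The libraries shared 2 cell barcodes, 1 of them among kept cells. The limit of 1% removed 244 knockout and 17 wild-type cells, so the libraries differed in how many cells it took. Levels are UMIs summed over cells, scaled to a total of 1000000 UMIs (CPM), and ratios are log2 of knockout over wild-type CPM with 0.5 counts added to each sum. Intervals are exact, at 95%, and cover counting error only.

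Knockout cells with at least 10 UMIs over 8 genes of primitive endoderm (Gata6, Gata4, Sox17, Pdgfra, Dab2, Cubn, Lrp2 and Amn), an early extraembryonic cell layer, were also taken apart and are called endoderm-gated. There were 94 of them (12.9% of kept knockout cells), against 3 in the wild-type library. Gate totals ran from 10 to 231 with a median of 53, with 4 knockout cells at 10 or 11 UMIs and 6 just outside at 8 or 9. The gate genes are the marker list itself, so the name was not checked independently. Summed CPM of 10 pluripotency genes, all detected in each set, was 4499 in the gated cells, 9645 in the other knockout cells and 12749 in ungated wild-type cells. Most of each sum was Dppa5a (3473, 7245 and 10299 CPM in the same order). Sall4 (113, 79.6 and 70.0) and Zfp42 (120, 106 and 78.2) were highest in gated cells. The rest of the list was lowest there. Sox2, Tdgf1, Fgf4, Sall4 and Zfp42 were higher in ungated knockout than in ungated wild-type cells, and the rest were lower or near equal. The gate also admitted macrophage-like cells: 2 of the 94 knockout cells and 2 of the 3 wild-type cells held at least 10 UMIs over Pf4, Wfdc17, Ccl6, Lyz2 and Ptprc, and all their gate UMIs were of Dab2. Of the other 92 gated knockout cells, none held more than 1 such UMI. The 3 gated wild-type cells are therefore not used as a group.

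Srf itself was checked first. It had 3 UMIs, or 0.165 CPM (0.0340 to 0.482), in knockout cells and 202 UMIs, or 8.68 CPM (7.52 to 9.96), in wild-type cells. Its log2 ratio was -5.50 (interval -8.01 to -4.15). The labels matched the counts at this gene. In the endoderm-gated cells Srf had 0 UMIs, which allows up to 1.33 CPM, taken as 3 counts of the total.

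Across the kept cells, 7 of the 10 adhesion and actomyosin genes lay between the 10th and 90th percentiles of all genes, and Myl12a, Vcl and Csrp1 lay below the 10th. Myl12a was lower by 0.5 or more on the log2 scale (a fold of 1.41), 1 of 10 members, where 3.95% of all 6554 genes averaging 10 CPM or more were. None was higher by that much, where 10.2% of all genes were. The members' median log2 ratio was -0.06 and that of all genes 0.09. Intervals lay wholly below 0 for 4 members (Myl12a, Vcl, Csrp1 and Flna), against 22.9% of all genes, and wholly above 0 for 2 (Actn4 and Actn1), against 40.8%. The cytoplasmic actins, which make up the filaments these proteins bind, differed far more: Actb had a log2 ratio of -1.82 and Actg1 of -2.08.

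**Figure D1:**
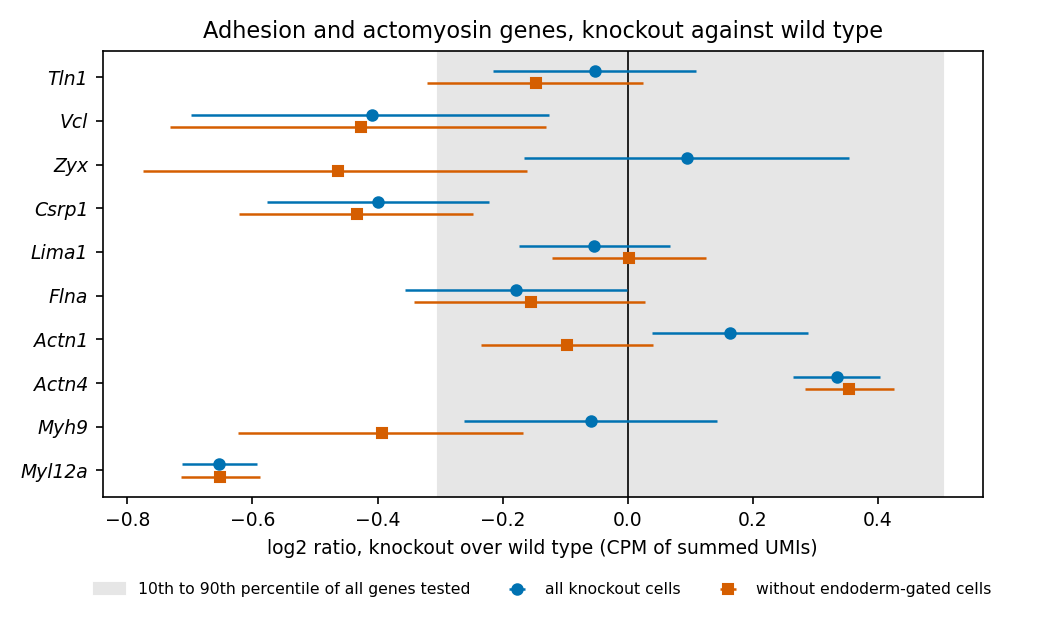
Log2 ratio of knockout over wild-type CPM (horizontal axis) for each member, for all kept knockout cells (circles) and without endoderm-gated cells (squares), with 95% intervals of counting error; the grey band runs from the 10th (-0.30) to the 90th (0.50) percentile of all 6554 genes tested. Myl12a lies at -0.65 either way, and Zyx, Myh9 and Actn1 move left when gated cells are left out.

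The scaling matters for small differences. With TMM factors (trimmed mean of M-values) the median of all genes moved from 0.09 to -0.02, and with median-of-ratios factors to -0.03. A scaling moves every gene alike. Vcl (-0.52) and Csrp1 (-0.51) passed -0.5 under TMM, which made 3 members lower with Myl12a, and Zyx changed sign (-0.013). The share of 3.95% of all genes belongs to the main scaling. The share under TMM is not given here, so the count of 3 has no background to be read against.

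Among the proteins that link integrins to actin, Tln1 (ENSMUSG00000028465, chromosome 4 from 43531519 to 43562691 on the minus strand, GRCm38) encodes talin 1, which binds integrin tails and switches integrins on. It had 549 UMIs, or 30.2 CPM (27.7 to 32.8), in knockout cells and 728 UMIs, or 31.3 CPM (29.1 to 33.6), in wild-type cells. The ratio was -0.053 (interval -0.22 to 0.11), and the level intervals overlapped. Vcl (ENSMUSG00000021823, chromosome 14 from 20929398 to 21033676 on the plus strand) encodes vinculin, which binds stretched talin and anchors it to actin. Vcl had 163 UMIs, or 8.95 CPM (7.63 to 10.4), in knockout cells and 277 UMIs, or 11.9 CPM (10.5 to 13.4), in wild-type cells. Vcl was thus lower in the knockout library, by a ratio of -0.41 (interval -0.70 to -0.13), at percentile 5.90 of all genes tested.

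LIM-domain proteins act with them. Zyx (ENSMUSG00000029860, chromosome 6 from 42349630 to 42360213 on the plus strand) encodes zyxin, which gathers on stretched actin filaments and at mature adhesions. Zyx had 228 UMIs, or 12.5 CPM (10.95 to 14.3), in knockout cells and 273 UMIs, or 11.7 CPM (10.4 to 13.2), in wild-type cells, with a ratio of 0.095 (interval -0.17 to 0.35), and the libraries overlapped. Csrp1 (ENSMUSG00000026421, chromosome 1 from 135720061 to 135752232 on the plus strand) encodes a cysteine- and glycine-rich LIM protein that binds alpha-actinin and zyxin. Csrp1 had 417 UMIs, or 22.9 CPM (20.8 to 25.2), in knockout cells and 703 UMIs, or 30.2 CPM (28.0 to 32.5), in wild-type cells. It was lower in the knockout library, with a ratio of -0.40 (interval -0.58 to -0.22). Lima1 (ENSMUSG00000023022, chromosome 15 from 99778470 to 99875456 on the minus strand) encodes EPLIN, which stabilises and bundles actin filaments. Lima1 had 989 UMIs, or 54.3 CPM (51.0 to 57.8), in knockout cells and 1312 UMIs, or 56.4 CPM (53.4 to 59.5), in wild-type cells, a ratio of -0.053 (interval -0.17 to 0.067). Of the genes whose printed windows hold the box, Vcl was thus lower, and the Lima1 interval held 0. The Lima1 window is at an internal start, and which start its UMIs came from was not measured.

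Of the crosslinkers, Flna (ENSMUSG00000031328, chromosome X from 74223461 to 74249820 on the minus strand) encodes filamin A, which joins actin filaments into a network and binds integrins. Flna had 441 UMIs, or 24.2 CPM (22.02 to 26.6), in knockout cells and 638 UMIs, or 27.4 CPM (25.3 to 29.6), in wild-type cells. Its ratio of -0.18 had an interval of -0.36 to -0.0011, which barely left out 0. Actn1 (ENSMUSG00000015143, chromosome 12 from 80167547 to 80260371 on the minus strand) encodes alpha-actinin 1, which bundles stress fibres. Actn1 had 986 UMIs, or 54.2 CPM (50.8 to 57.7), in knockout cells and 1126 UMIs, or 48.4 CPM (45.6 to 51.3), in wild-type cells, a ratio of 0.16 (interval 0.038 to 0.29). Actn4 (ENSMUSG00000054808, chromosome 7 from 28893248 to 28962340 on the minus strand) encodes the related alpha-actinin 4. Actn4 had 3362 UMIs, or 185 CPM (178 to 191), in knockout cells and 3410 UMIs, or 147 CPM (142 to 152), in wild-type cells. It was the member highest in the knockout library, with a ratio of 0.33 (interval 0.26 to 0.40), at percentile 78.8 of all genes. The alpha-actinins are close paralogs, and the sources used here do not say which of them was given a read that fits both.

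Of the motor, Myh9 (ENSMUSG00000022443, chromosome 15 from 77760587 to 77842175 on the minus strand) encodes the heavy chain of non-muscle myosin IIA. Myh9 had 355 UMIs, or 19.5 CPM (17.5 to 21.6), in knockout cells and 473 UMIs, or 20.3 CPM (18.5 to 22.2), in wild-type cells, a ratio of -0.059 (interval -0.26 to 0.14). Myl12a (ENSMUSG00000024048, chromosome 17 from 70993656 to 71002878 on the minus strand) encodes a regulatory light chain, whose phosphorylation turns the motor on. Myl12a had 3321 UMIs, or 182 CPM (176 to 189), in knockout cells and 6675 UMIs, or 287 CPM (280.0 to 294), in wild-type cells. The libraries stood well apart at Myl12a, with a ratio of -0.65 (interval -0.71 to -0.59), or 1.57 times lower in the knockout, at percentile 1.82 of all genes. Its near-identical paralog, Myl12b, had 1227 and 1813 UMIs and a ratio of -0.21 (interval -0.31 to -0.10), so the difference was smaller there. Both light chain genes are uncertain to the extent that the counting could assign reads of one to the other.

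The genotype comparison changed for 3 members once the endoderm-gated cells were left out of both libraries. Zyx then had 8.40 CPM (interval 7.04 to 9.95) in 637 knockout cells and 11.6 CPM (interval 10.3 to 13.1) in 890 wild-type cells, and its ratio went from 0.095 to -0.46 (interval -0.78 to -0.16). Myh9 went from -0.059 to -0.39 (interval -0.62 to -0.17), with 15.4 and 20.2 CPM. Actn1 changed sign, from 0.16 to -0.097 (interval -0.23 to 0.04), an interval that holds 0. Gated cells carried 12.4% of knockout UMIs but 41.2% of those of Zyx, 31.0% of Myh9 and 27.1% of Actn1. Myl12a (-0.65), Vcl (-0.43), Csrp1 (-0.43) and Actn4 (0.35) hardly moved. Without gated cells the members' median was -0.27, against 0.06 over all 6454 genes. Myl12a was again the sole member lower by 0.5 or more (background 4.12%). Intervals lay below 0 for 5 members (Myl12a, Zyx, Csrp1, Vcl and Myh9), against 24.3% of all genes, and above 0 for 1, Actn4, against 36% of all genes. None was higher by 0.5 or more (background 7.39%).

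Within the knockout library, endoderm-gated cells held much more Zyx, Myh9 and Actn1 than the other cells. Zyx had 94 UMIs, or 41.6 CPM (33.7 to 51.0), in the 94 gated cells and 134 UMIs, or 8.40 CPM (7.04 to 9.95), in the 637 others, a log2 ratio of 2.31 (interval 1.91 to 2.70), or 4.96 times. Myh9 had 110 UMIs, or 48.7 CPM (40.1 to 58.7), and 245 UMIs, or 15.4 CPM (13.5 to 17.4), a ratio of 1.67 (interval 1.33 to 1.996). Actn1 had 267 UMIs, or 118 CPM (105 to 133), and 719 UMIs, or 45.1 CPM (41.9 to 48.5), a ratio of 1.39 (interval 1.18 to 1.596). These are a plaque protein, the motor heavy chain and the stress-fibre crosslinker. Tln1 was higher by less, at 44.3 CPM (interval 36.1 to 53.9) against 28.2 CPM (interval 25.6 to 30.9), a ratio of 0.66 (interval 0.33 to 0.97), which was 0.49 under TMM.

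The other members did not share this difference. Lima1 was lower in the gated cells, at 39.0 CPM (interval 31.3 to 48.0) against 56.5 CPM (interval 52.9 to 60.3), a ratio of -0.53 (interval -0.87 to -0.22). Actn4, the paralog of Actn1, had 167 and 187 CPM, a ratio of -0.17 (interval -0.33 to -0.013). The share of chromosome 8 genes, described further on, was raised in 61 of the 94 gated cells and 308 of the 637 others. Among cells of usual share, Lima1 (0.0048) and Actn4 (0.036) had ratios near 0, while Zyx (2.95), Myh9 (2.28) and Actn1 (1.83) had larger ratios than over all cells. The median of all genes was also larger there, at 0.25 against 0.11 over all cells. Intervals are not given for the ratios in cells of usual share, which rest on the smaller part of the gated cells. Over all cells again, Myl12a (-0.018, interval -0.17 to 0.13), Flna (-0.17, interval -0.64 to 0.25) and Csrp1 (0.26, interval -0.17 to 0.65) had intervals that held 0. Vcl had 22 UMIs in the gated cells and a ratio of 0.17 (interval -0.58 to 0.80), and lay under the mean of 10 CPM.

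Of the 9 members over that mean, 4 were higher by 0.5 or more, where 29.9% of all 6968 genes were, and 1 was lower, where 13.7% were. Intervals lay wholly above 0 for 4 (background 36.3%) and below 0 for 2, Lima1 and Actn4 (background 22.7%). The members' median was 0.26 (0.21 with Vcl) and that of all genes 0.11, so these counts lay near or moderately above the background, and the large sizes belonged to 3 genes. The all-gene median moved to -0.06 under TMM. With 1 library and cells sorted by their own counts, this contrast has no replicate. Without macrophage-marked cells the ratios were 2.32 for Zyx, 1.64 for Myh9, 1.41 for Actn1 and 0.69 for Tln1. A gate without Dab2 (89 cells) gave 2.23, 1.64, 1.41 and 0.65 in the same order. Fibroblast feeder cells carry these genes at high levels (Zyx had 499.6 CPM in the 22 feeder cells removed from the knockout library). Summed CPM of 10 fibroblast markers was 8.86 in the gated cells (20 UMIs, 6 of 10 detected) and 29.8 in the other knockout cells (476 UMIs, all detected). Most of the second sum was Bgn (8.65 CPM, against 2.22 in gated cells) and Thy1 (11.4 against 1.33). Acta2 (3.102 in gated against 2.26 CPM in other cells) and Col1a2 (1.33 against 0.50) were higher in gated cells on 7 and 3 UMIs, Dcn was equal (0.44 in both), and Col1a1, Col3a1, Meg3 and Postn were at 0 UMIs there. Kept cells had already been limited on 3 of these genes, and the part of fibroblast RNA in the Zyx ratio was not tested.

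**Figure D2:**
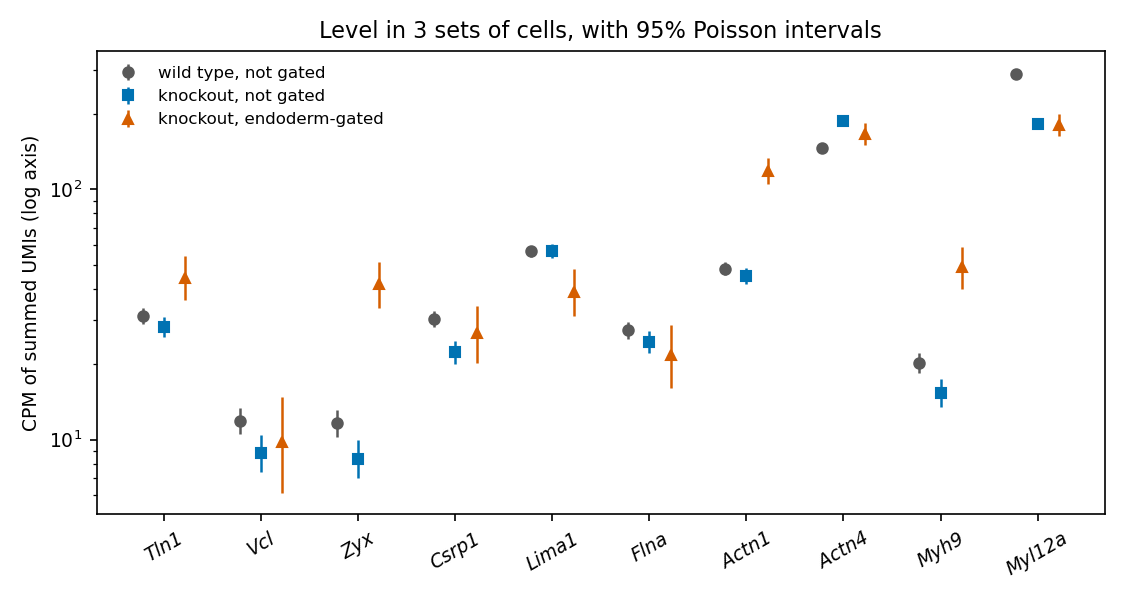
Level of each member in CPM of summed UMIs (log axis) in ungated wild-type cells (circles), ungated knockout cells (squares) and endoderm-gated knockout cells (triangles), with 95% Poisson intervals. Gated cells stand above both other sets for Zyx (41.6 CPM), Actn1 (118.3), Myh9 (48.7) and Tln1 (44.3), while Myl12a is lower in both knockout sets than in wild type.

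The gated cells were also set against wild-type cells, where the count of members higher lay near the background. Zyx (1.85, interval 1.49 to 2.19), Actn1 (1.30, interval 1.097 to 1.49), Myh9 (1.28, interval 0.96 to 1.57) and Tln1 (0.51, interval 0.19 to 0.81) were higher by 0.5 or more than in ungated wild-type cells, 4 of 10 where 34.8% of all 6906 genes were. Myl12a (-0.67, interval -0.82 to -0.53) and Lima1 (-0.53, interval -0.86 to -0.22) were lower by that much, where 14.3% of all genes were. Intervals lay above 0 for 5 members, Actn4 (0.19) among them (background 42.5%), and below 0 for 2 (background 22.7%). In order of level, gated cells ranked above wild type and wild type above the other knockout cells for Zyx and Myh9, each step with intervals apart. For Actn1 and Tln1 the gated cells stood apart from the others, and the wild-type and ungated knockout intervals overlapped. For Flna all 3 overlapped. Myl12a was highest in wild type, and the knockout sets overlapped.

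The level of Zyx, Actn1 and Myh9 also differed with the amount of gate RNA. In knockout cells with 0, 1 or 2 to 4 gate UMIs, Zyx had 8.25, 8.09 and 6.20 CPM. Zyx had 22.1 CPM (interval 12.7 to 35.9) in the 31 cells with 10 to 29 gate UMIs and 50.8 CPM (interval 40.2 to 63.5) in the 63 cells with 30 or more, intervals that do not overlap. Actn1 had 67.8 CPM (interval 50.2 to 89.6) and then 142 CPM (interval 124 to 162). Those with 30 or more gate UMIs were thus the highest for both genes. Myh9 had 33.2 CPM (interval 21.3 to 49.4) and 56.1 CPM (interval 44.8 to 69.2), which overlap. Tln1 showed no such step, with 47.0 and 43.0 CPM. The 15 cells with 5 to 9 gate UMIs, outside the gate, had 25.7 CPM (interval 11.1 to 50.6) of Zyx and 67.4 CPM (interval 41.8 to 103) of Tln1, but rest on 8 and 21 UMIs.

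**Figure D3:**
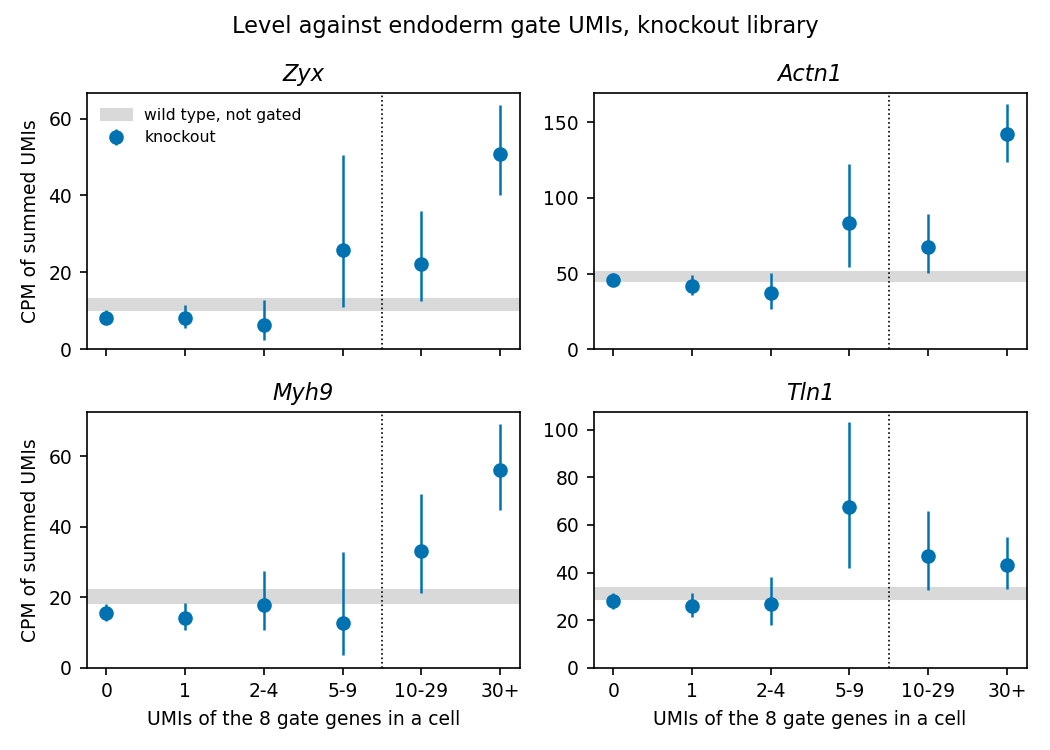
Level in CPM of summed UMIs (vertical axes, from 0) of 4 members in knockout cells, by the UMIs of the 8 gate genes in a cell (horizontal axis), with 95% Poisson intervals; the dotted line marks the gate of 10 UMIs and the grey band the interval of ungated wild-type cells. Zyx is near 8 CPM at 0 gate UMIs and 50.8 CPM at 30 or more, while Tln1 has no step between the last 2 sets.

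Shares of cells with a UMI were compared after each cell was thinned to 10000 UMIs, which left out 66 knockout and 77 wild-type cells that were shallower. These genes are expressed widely, so no cell type in the data gives a background share. Myl12a was found in 556 of 665 cells (83.6%, interval 80.6 to 86.3) from the knockout and 739 of 816 cells (90.6%, interval 88.3 to 92.5) from the wild type. Unthinned, the shares were 95.6% and 97.1%. Vcl was found in 53 of 665 cells (7.97%, interval 6.03 to 10.3) and 88 of 816 cells (10.8%, interval 8.74 to 13.1), or 19.3% and 24.9% unthinned, with thinned intervals that overlap. Over the 10 members the median difference was -1.78 percentage points thinned and -3.88 unthinned.

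Zyx shows how the gated cells contribute. It was found in 29 of 91 cells (31.9%, interval 22.5 to 42.5) that were gated, in 32 of 574 cells (5.57%, interval 3.84 to 7.78) of the other knockout cells, and in 81 of 813 cells (9.96%, interval 7.99 to 12.2) of ungated wild-type cells. The 3 intervals do not overlap. Unthinned, these shares were 48.9%, 17.1% and 21.3%. Myh9 followed the same order, at 35.2%, 15.5% and 20.2% (62.8%, 31.2% and 38.7% unthinned), with the gated interval apart from the others. Actn1 was found in 62.6%, 38.5% and 40.0% (84.0%, 61.9% and 66.9% unthinned). The gated cells were again apart, and the other 2 sets overlapped.

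**Figure D4:**
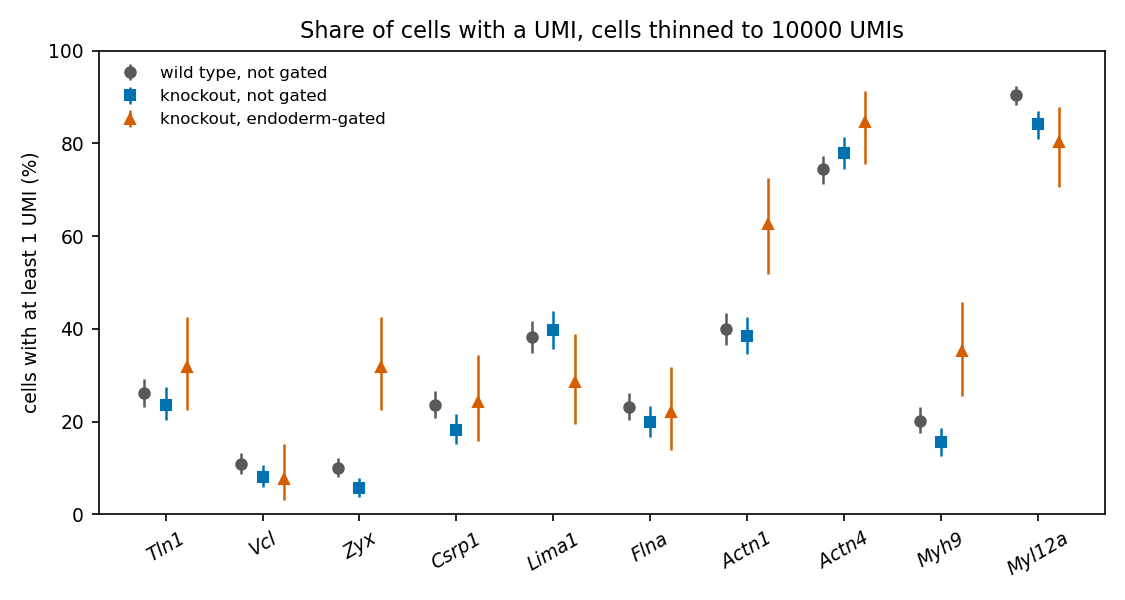
Share of cells with at least 1 UMI (vertical axis, percent) for each member after thinning to 10000 UMIs, in 813 ungated wild-type cells, 574 ungated knockout cells and 91 endoderm-gated knockout cells, with 95% Clopper-Pearson intervals. The gated cells stand apart for Zyx (31.9%), Actn1 (62.6%) and Myh9 (35.2%).

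Myl12a differed between the libraries both among most cells and in an upper tail of wild-type cells. Thinned cells held a mean of 1.72 UMIs in the knockout library and 2.79 in the other. The 10th percentile, median and 90th percentile were 0, 2 and 3 UMIs in 665 knockout cells and 1, 2 and 5 in 816 wild-type cells. At least 8 UMIs were found in 29 wild-type cells (3.55%, up to 24 UMIs) and 2 knockout cells (0.30%, up to 9). Those 29 cells held 13.2% of the wild-type Myl12a UMIs, and without cells at that limit the means were 1.70 and 2.51. The limit of 8 was chosen after the values were seen. In the 29 wild-type cells the median thinned Actb count was 12, against 7 in the rest.

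**Figure D5:**
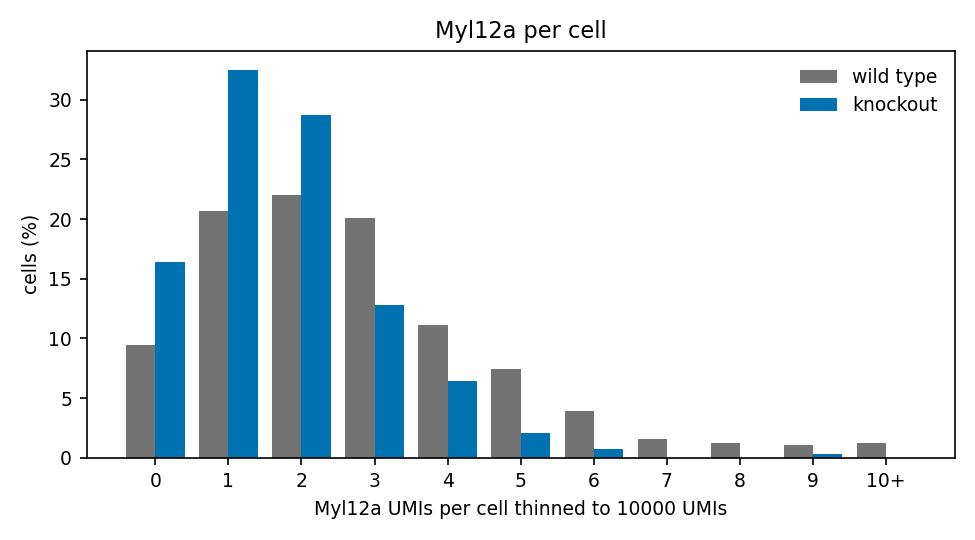
Share of cells (vertical axis, percent, from 0) by the number of Myl12a UMIs after thinning to 10000 UMIs (horizontal axis, the last bar pooling 10 or more), for 816 wild-type and 665 knockout cells. Knockout cells are most often at 1 UMI and reach 9, and wild-type cells spread to 24.

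Variation between cells, which the title of the series concerns, could be read for few members. The variance over the mean of thinned Myl12a counts was 1.02 in knockout cells and 1.89 in wild-type cells, where 1 is what counting alone gives. For Csrp1 it was 1.12 and 1.79, at means of 0.22 and 0.30 UMIs. In the wild type, 2 of the 816 cells held 8.26% of the Csrp1 UMIs, and their part in its value was not tested. For Actn4 it was 1.55 and 1.25, at means of 1.95 and 1.53 UMIs, and this measure rises with the mean. By squared coefficient of variation, which divides by the squared mean, knockout over wild type gave a log2 value of -0.20 for Myl12a, -0.04 for Actn4 and 0.16 for Lima1, the 3 members averaging 0.5 or more thinned UMIs. Over all 2097 such genes the median was 0.02, and 53.2% were higher in the knockout. The 10 members summed to 6.75 ± 3.85 UMIs per thinned wild-type cell (SD over 816 cells) and 6.01 ± 2.92 per knockout cell (665 cells).

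A raised share of chromosome 8 genes, over 1.2 times the wild-type median, marked 369 kept knockout and 88 wild-type cells, and several members differed with it. No member lies on chromosome 8. The integrins and other related genes further on were not split by this share, and their chromosomes are not given here. In ungated knockout cells Actn4 had 155 CPM where the share was raised and 219 where it was usual, a ratio of -0.50 (interval -0.61 to -0.40). Lima1 (-0.67, interval -0.87 to -0.47), Flna (-0.64, interval -0.94 to -0.34) and Csrp1 (-0.44, interval -0.76 to -0.13) were also lower in those cells, and Myl12a was higher (0.23, interval 0.12 to 0.34). In wild-type cells Actn4 had 149 and 146 CPM, with no such gap.

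Genotypes were therefore also compared within each class, without gated cells. Myl12a was lower in the knockout in both, at -0.78 (interval -0.87 to -0.70) in usual cells and -0.42 (interval -0.56 to -0.28) in raised cells. Actn4 was higher among usual cells, at 0.59 (interval 0.50 to 0.67), and among raised cells its ratio was 0.053 (interval -0.12 to 0.23). Lima1 was 0.27 (interval 0.13 to 0.42) and -0.13 (interval -0.44 to 0.20). Flna was 0.13 (interval -0.092 to 0.35) in usual and -0.56 (interval -0.98 to -0.11) in raised cells. Vcl and Zyx were lower in usual cells, at -0.59 (interval -1.02 to -0.20) and -0.61 (interval -1.05 to -0.22), and their intervals held 0 in raised cells, at -0.025 (interval -0.70 to 0.75) and 0.085 (interval -0.63 to 0.93). Myh9 was lower in raised cells, at -0.75 (interval -1.23 to -0.23), and its interval held 0 in usual cells, at -0.20 (interval -0.49 to 0.075). Tln1 was lower in raised cells, at -0.44 (interval -0.80 to -0.052). In usual cells the Tln1 interval held 0, at -0.077 (interval -0.30 to 0.14). Vcl, Zyx, Myh9, Tln1 and Flna thus each had an interval below 0 in 1 class alone. Their wild-type UMIs in the raised class were 22, 19, 51, 84 and 64. Actn1 intervals held 0 in both classes, at -0.024 (interval -0.20 to 0.15) in usual and -0.12 (interval -0.44 to 0.21) in raised cells. Csrp1 was lower in both, at -0.25 (interval -0.48 to -0.02) and -0.48 (interval -0.92 to -0.021). The intervals of the classes did not overlap for Myl12a, Actn4 and Flna, and did for the other members, with 87 wild-type cells in the raised class. Whether the chromosome class has a part in these ratios beyond this split was not tested.

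Shallow wild-type cells held more Myh9 than deep ones. In ungated wild-type cells of under 10000, 10000 to 20000, 20000 to 30000 and over 30000 UMIs, Myh9 had 40.7, 37.2, 17.3 and 18.2 CPM. In knockout cells it had 13.5, 16.3, 17.7 and 12.9 CPM, with no such order. Tln1 had 49.1, 41.8, 31.6 and 28.0 CPM in the wild-type sets. The shallower wild-type cells also held 5255 and 3454 CPM of Actb, against 754 and 654 in the deeper ones. Over cells of at least 20000 UMIs, without gated cells, the knockout over wild-type ratio of Myh9 was -0.22, against -0.39 over all depths, while Zyx (-0.50) and Myl12a (-0.70) were slightly further from 0 than over all depths. At 20000 to 30000 UMIs the Myh9 level intervals overlapped, at 14.7 to 21.3 in the knockout and 14.6 to 20.2 in the wild type. Over 30000 UMIs they overlapped barely, at 10.4 to 15.9 and 15.8 to 20.8. Myl12a had 294, 176, 159 and 200.3 CPM in the knockout sets and 251, 243, 271 and 309 in the wild-type sets. It was lower in the knockout in the deeper 3 sets, and under 10000 UMIs it was the knockout value (interval 245.7 to 348.7) that was higher, with an interval overlapping that of the wild type (212.01 to 294.6). The part of depth or of Actb-rich cells in the Myh9 ratio was not tested further.

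Integrins, the receptors that talin binds, were mostly higher in the knockout library. Of 13 integrin genes, 5 reached 10 CPM, and 4 of these were higher by 0.5 or more in the knockout, where 10.2% of all genes were, and none lower. Itga3, a laminin-binding chain, had 19.1 CPM in knockout cells and 8.29 in wild-type cells, a ratio of 1.203 (interval 0.95 to 1.47). Itgb1, the chain common to most of these receptors, had 49.6 and 25.7 CPM, a ratio of 0.95 (interval 0.80 to 1.099). Itga5, the fibronectin-binding partner of Itgb1, had a ratio of 0.74 (interval 0.50 to 0.98). Itga6, the remaining one, had 0.51. Without gated cells Itga3 (1.25), Itgb1 (0.81) and Itga6 (0.56) were still higher by that much, and Itga5 was not (0.37). The chromosome 8 share was raised in 369 kept knockout and 88 wild-type cells. Integrins were not compared within its classes, and the part of gene dosage in their ratios was not tested.

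Genes acting beside the members were also counted between genotypes, against backgrounds of 10.2% higher and 3.95% lower. Of 30 adhesion scaffolds and kinases, 22 reached 10 CPM and none differed by 0.5 or more, with a median of 0.07. Parvb (0.497), a partner of integrin-linked kinase, and Arhgef7 (0.49), an exchange factor for small GTPases, lay just under that limit, and without gated cells they passed it, at 0.53 and 0.52 (background 7.39%). Of 17 genes of myosin II and its regulators, 13 reached it and 1 was higher, Anln (0.51), which encodes the actomyosin scaffold anillin, with a median of 0.18. Of 11 relatives of the members, 7 reached it and 2 were higher, among them Rdx (0.60), a membrane-actin linker, with a median of 0.24. Without gated cells none of the myosin II genes or relatives differed by 0.5 or more. Like the integrins, the genes of these lists, Parvb and Arhgef7 among them, were not compared within the chromosome 8 classes. The part of gene dosage in their ratios was not tested.

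In the gated cells, more of these genes differed from the other knockout cells, against backgrounds of 29.9% higher and 13.7% lower. Of 22 scaffolds and kinases 8 were higher and 2 lower. Ilk, integrin-linked kinase, had 43.0 CPM in gated and 13.98 in other cells, a ratio of 1.62 (interval 1.26 to 1.97). Pdlim1 (1.197), an alpha-actinin-binding LIM protein, and the adaptor Crk (1.01) followed. Fblim1, a filamin-binding LIM protein, was lower, at -2.48 (interval -3.04 to -2.01), as was Enah (-0.82), which speeds actin growth at adhesions. Of 6 integrins, Itga5 (1.76), Itgav (1.45) and Itgb1 (0.90) were higher and Itga3 (-0.51) and Itga6 (-0.51) lower. The Itga3 interval (-1.12 to 0.00098) held 0, and that of Itga6 (-0.85 to -0.21) did not. The chromosome 8 share was raised in a larger part of the gated cells. Its part in the ratios of these related genes was not tested.

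Of 13 myosin II genes in the gated cells, 5 were higher and 1 lower. Rhob, a small GTPase, had 49.2 and 7.27 CPM, a ratio of 2.76 (interval 2.37 to 3.15). Myl6, the essential light chain, had 0.70 and the kinase Rock2 0.68, while the formin Diaph1 had -0.78. Of 7 relatives, 4 were higher and 3 lower. Ezr (0.90) and Rdx (0.76), membrane-actin linkers, were among the higher ones. The LIM proteins Crip2 (-1.27), Crip1 (-1.05) and Csrp2 (-0.82) were lower.

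The knockout cells left out for under 1% mitochondrial counts showed another pattern in these genes. Ungated, they were compared with the ungated cells kept, and they are shallower, with a median of 8632 UMIs over all 244 cells under 1% against 24619. Csrp1 (0.85, interval 0.53 to 1.16) and Myl12a (0.49, interval 0.37 to 0.61) were higher in them, as was Myl12b (0.73, interval 0.54 to 0.91). Lima1 (-2.60, interval -3.26 to -2.05), Flna (-2.31, interval -3.29 to -1.58), Actn4 (-1.84, interval -2.10 to -1.603), Actn1 (-1.37, interval -1.85 to -0.96), Myh9 (-1.18, interval -1.997 to -0.53) and Tln1 (-0.82, interval -1.32 to -0.38) were lower. Of the 8 members with a mean of at least 10 CPM, 6 were lower by 0.5 or more, where 34.7% of all 5917 genes were, and 1 was higher, where 21.8% were. Intervals lay wholly below 0 for 6 (background 40%) and above 0 for 2 (background 32.7%). Vcl had 1 UMI there, and Zyx 19 UMIs with an interval of -1.05 to 0.43. The members with positive ratios have the shortest transcripts in the annotation (1828 bases at most for Csrp1 and 1937 for Myl12a), and Flna (8456) and Tln1 (8393) the longest. Among the 6 lower members the ratios did not follow the order of length. Lima1 (4243) had the lowest ratio and Tln1 the ratio nearest 0, and Actn4 (3877) lay below Myh9 (7433). The part of transcript length or RNA quality in this was not tested.

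Members were weakly correlated with each other across cells. On log2 of the thinned count plus 1, the median Pearson correlation over their 45 pairs was 0.03 over 816 wild-type cells, with the highest, 0.17, between Vcl and Myh9. The lowest there was -0.08. In ungated knockout cells the pairs ran from -0.23 to 0.13, with a median of 0.02. The genes most like the members' sum in wild-type cells, of 2224 compared, were S100a11 (0.21), Lgals1 (0.21), Tpm1 (0.19), S100a6 (0.15) and Sparc (0.15). Most of that sum, a mean of 6.75 thinned UMIs, was Myl12a (2.79) and Actn4 (1.53), so the less abundant members weigh little in it. Over 574 ungated knockout cells Lgals1 (-0.08) and S100a6 (-0.08) had the other sign, Sparc had 0.13, and S100a11 and Tpm1 averaged under 0.5 thinned UMIs and were not compared. Cells of 1 library share depth and preparation, and correlations this weak in sparse counts are given as a description.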

How the data were processed

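Both libraries were made on the 10x Genomics Chromium platform, as the labels' protocols say. The authors deposited whole-number UMI counts per gene and cell, in integer matrices per the file headers, with no normalisation. The authors used Cell Ranger 2.0.0, Seurat 3.1.1 and build mm10, per the submitters' processing notes. The annotation, cell calling and the rules for strand and for reads common to similar or overlapping genes are not given in the sources used here. Bulk RNA sequencing, named in the design text, was not analysed here.

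Members, lists and gates were chosen with earlier results of these data known. Named genes were the 10 members, Srf, Myl12b, Actb and Actg1, up to 3 genes of largest log2 ratio in each direction past 0.5 in each related list (mean of at least 10 CPM), and the 5 genes most like the members' sum. A gene that this rule names is not reported here. The macrophage, depth and chromosome class splits within libraries were added after seeing the data. With 1 library per genotype no p-value was computed. Poisson intervals were used for counts, Clopper-Pearson intervals for shares, and for ratios intervals that condition on the summed count, each tested on simulated data. No doublet caller was run, and leaving out the top 2% of cells by UMIs was an alternative. The chromosome 8 share was taken over autosomal genes without ribosomal protein genes. Cells were thinned without replacement to 10000 UMIs. Of 27998 matrix genes, 27645 had their identifier in GENCODE M21 (GRCm38), the source of positions. Among genes overlapping a member on the other strand, Ap3m1 (at Vcl) had the most UMIs (444 in the knockout). Promoter sequences are from RefSeq (GRCm38.p6). Python 3.11.15, numpy 2.4.6, scipy 1.17.1, pandas 2.3.3 and matplotlib 3.10.9 were used, and edgeR 4.0.16 for TMM factors alone.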

Additional observations from a re-analysis of the deposited data

How the results depend on the processing

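All alternatives listed were run, and no library could be left out. No paired analysis was possible because there was a single library of either genotype. The members' median knockout over wild-type log2 ratio (-0.06) was -0.16 with TMM, -0.18 with median of ratios, -0.16 with mitochondrial shares of 0 to 10%, 0.16 with feeder cells kept, -0.27 without gated cells and 0.068 in cells of usual chromosome 8 share. The median of all genes (0.086) was -0.022, -0.034, 0.070, 0.087, 0.058 and 0.102 in the same order. Members lower by 0.5 or more (1) were 3 with TMM and with median of ratios, 0 with feeder cells and 2 in usual cells, and members higher (0) were 1 in each of the last 2. The shares of all genes past these limits under the alternatives are not given here. These counts therefore have no background and say nothing about the members as a set. Srf (-5.50) was -3.24 with feeder cells, which carry the gene. Among members whose interval left out 0, signs changed for Vcl (0.15) and Flna (0.24) with feeder cells, for Actn1 (-0.10) without gated cells, and for Flna (0.10) in usual cells. Ratios nearer 0 also changed sign: Zyx (0.095) was -0.46 without gated cells and between -0.025 and -0.0013 with TMM, median of ratios and mitochondrial shares of 0 to 10%, Myh9 (-0.059) was 0.18 with feeder cells and 0.20 in usual cells, Tln1 (-0.053) was 0.053 with feeder cells and Lima1 (-0.053) 0.28 in usual cells. Myh9, Tln1 and Lima1 changed sign at sizes under 0.1 under depth limits or without gated cells. The Myl12a ratio of knockout over wild type was negative under every alternative listed, from -0.78 to -0.49 with feeder cells, but these include none of shallow cells alone.

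For gated over other knockout cells, the median (0.26) was 0.47 with a gate of 20 UMIs, 0.087 with TMM, 0.099 with median of ratios, 0.43 with cells weighted alike, 0.095 with mitochondrial shares of 0 to 10% and 0.55 in usual cells. The median of all genes (0.114) was 0.144, -0.056, -0.045, 0.142, 0.136 and 0.253 in the same order. The 1 member lower by 0.5 or more became 0 under the gate of 20, a gate of 5 thinned UMIs, equal weights, shares of 0 to 10% and usual cells. Shares of all genes lower by that much are not given for these settings either. In usual cells Actn4 (0.036) and Lima1 (0.0048), whose intervals had left out 0, changed sign. Without gated cells, the genotype median (-0.27) was -0.14 with 0 feeder UMIs, -0.077 in usual cells, -0.10 in cells of at least 15000 UMIs and -0.13 in cells of at least 20000. The last 4, and the gated values in usual cells, were chosen after seeing the data. Without thinning, the median difference in shares (-1.78 percentage points) was -3.88, and the members' median log2 ratio of squared variation (-0.04) was 0.18. The cause of these changes was not tested. Depth limits Vcl and Zyx most, with under 300 UMIs a library.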
